A study of Rattus norvegicus with 8 samples.

Results

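miR-218 is represented on the rat microRNA (miRNA) array by 4 mature miRNAs, rno-miR-218a-5p, rno-miR-218a-1-3p, rno-miR-218a-2-3p and rno-miR-218b, out of 758 miRNAs in all. They were chosen by name, with earlier results of these data known. They are every array entry whose name begins with miR-218a or miR-218b, with any arm or precursor suffix. miR-218a-5p was bright on all 8 arrays. Its level was lower at 4 d than at 4 h after labyrinthectomy by a factor of 0.711, a difference that did not pass the test across all miRNAs. The other 3 members were at or near background.

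The samples were medial vestibular nuclei (MVNs) from the left brainstem of 7-week-old male Sprague–Dawley rats. The 4 groups were the unilateral vestibular deafferentation (UVD) group at 4 d and at 4 h after surgery and the sham operation (SO) group at 4 d and at 4 h. UVD was made on the left by labyrinthectomy, in which the inner ear was opened and ethanol was injected, and SO animals had the same surgery without that opening and the ethanol. Each array measured RNA pooled from 3 rats, and each group had 2 arrays. All rats were thus operated on and none was intact, and the middle ear was opened in both operations. The MVN was dissected by hand, so a sample holds every cell type of the nucleus and may hold its neighbors. In such bulk RNA, fewer cells of a type and less RNA per cell cannot be told apart.

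A miRNA guides the Argonaute silencing complex to messenger RNAs that pair with its seed, the bases next to its 5′ end, and lowers their translation and stability. In mammals miR-218 is made from hairpins within introns of Slit2 and Slit3, the genes of secreted axon guidance proteins that act through Robo receptors. It is best known from the motor neurons of the brainstem and spinal cord, where it is abundant and represses genes of other neuron types.

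The mature sequences of all 4 members, from RefSeq with coordinates of the GRCr8 assembly, are shown because their seeds tell the members apart. They are written 5′ to 3′ with the seed, bases 2 to 8, in capitals.
miR-218a-5p: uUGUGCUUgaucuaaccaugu
miR-218a-2-3p: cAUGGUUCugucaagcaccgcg
miR-218a-1-3p: aAACAUGGuuccgucaagcac
miR-218b: cAUGGUUAgaucaagcacaa

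The seeds of the 4 members differed from each other. None was shared with another of the 685 array miRNAs that had a sequence in RefSeq. miR-218b carries the family number but not the seed of miR-218a-5p.

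miR-218a-5p comes from 2 precursors with the same mature sequence, so the array cannot tell their products apart. Its copy in Mir218-2 lies at chr10:20572547-20572567 on the plus strand, within the span of Slit3 and on the same strand as Slit3. Its copy in Mir218-1 lies at chr14:66922413-66922433 on the minus strand, within the span of Slit2. Both hairpins are shown here with the mature arms in capitals, the 5p arm first and the 3p arm second, because the array measured both arms of each.
Mir218-2, chr10:20572523-20572632, plus strand: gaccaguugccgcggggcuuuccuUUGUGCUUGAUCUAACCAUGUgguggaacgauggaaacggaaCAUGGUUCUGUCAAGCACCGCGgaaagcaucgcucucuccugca
Mir218-1, chr14:66922348-66922457, minus strand: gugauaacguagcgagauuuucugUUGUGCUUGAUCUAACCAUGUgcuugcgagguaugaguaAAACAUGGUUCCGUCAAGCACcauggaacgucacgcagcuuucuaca

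The 3p arms of these hairpins overlap over 18 positions and are identical at 17 of them. The seeds nevertheless differ because miR-218a-1-3p starts further upstream.

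miR-218b is the product of RefSeq gene Mir3565 at chr14:66922414-66922433 on the plus strand, opposite the 5p arm of Mir218-1. It is shown above the reverse complement of miR-218a-5p, with the bases that match in capitals.
miR-218b: CAUGGUUAGAUCAAGCACAA
Reverse complement of miR-218a-5p: aCAUGGUUAGAUCAAGCACAA

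All 20 bases of miR-218b were the reverse complement of positions 1 to 20 of miR-218a-5p. The array thus held probes for both strands of 1 locus within the span of Slit2.

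Each miRNA had 16 spots per array. From their background-subtracted signals the scanner software made a signal for each probe sequence, and from these 1 total gene signal per miRNA in arbitrary intensity units. Between 378 and 430 miRNAs were detected per array, and 0 spots were saturated. All 8 arrays lay on 1 slide and were read in 1 scan. The UVD and SO arrays lay in different rows of the slide and the 4 d and 4 h arrays in different columns, so slide position and group cannot be told apart. For comparison between arrays the total gene signals were quantile normalized, which gives every array the same set of values and each miRNA the value of its rank. A miRNA was tested with limma if some group had it detected on both of its arrays, which held for 422 of the 758 miRNAs, and miR-218a-5p was the 1 member of the 4 among them.

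miR-218a-5p was detected on 8 of 8 arrays. Before normalization its total gene signal was 3645 and 2749.9 on the UVD 4 d arrays, 4109 and 3749 on the UVD 4 h arrays, 3293 and 2768 on the SO 4 d arrays, and 2961 and 4095 on the SO 4 h arrays. The error that the scanner software gave these signals was between 197 and 293. The brightest arrays were 1 of UVD 4 h and 1 of SO 4 h, and the dimmest were 1 of UVD 4 d and 1 of SO 4 d. The UVD 4 d arrays were both below the UVD 4 h arrays, but the closest pair, 3645 and 3749, differed by less than the error of either. The UVD 4 d array with 3645 was also the brightest array of the slide, with a 75th percentile of 876 over the miRNAs detected on all arrays, against 612 to 804 on the other 7 arrays.

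After quantile normalization miR-218a-5p had 2949 and 2949 on the UVD 4 d arrays, 4505 and 3820.1 on the UVD 4 h arrays, 3329 and 2949 on the SO 4 d arrays, and 3257 and 3957 on the SO 4 h arrays. Both UVD 4 h arrays were above both UVD 4 d arrays. The SO 4 d and SO 4 h arrays overlapped. The 3 equal values were not equal measurements, since miR-218a-5p was the 45th brightest miRNA on each of these arrays and took the value of that rank. On the other 5 arrays it ranked between 35th and 42nd. Equal values on both arrays of a group were found for 38 to 50 of the 422 tested miRNAs, by group.

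**Figure D1:**
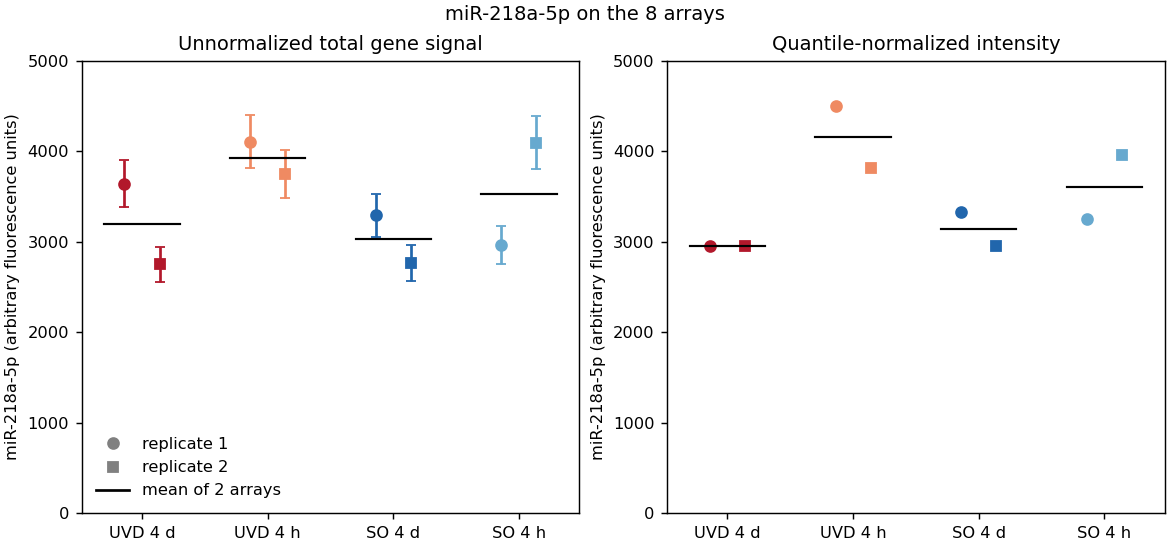
miR-218a-5p on each of the 8 arrays, by group, as total gene signal before normalization and as quantile normalized intensity (both in arbitrary units). Points are arrays and black lines are means of the 2 arrays of a group, and the UVD 4 d points at 2949 coincide after normalization.

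Group means of the normalized intensity were 2949 ± 0 in UVD 4 d, 4163 ± 484 in UVD 4 h, 3139 ± 269 in SO 4 d and 3607 ± 495 in SO 4 h (SD, n = 2 arrays each). The SD of 0 is that of the tied rank, and before normalization the mean of the UVD 4 d group was 3198 ± 633. From high to low, the order was UVD 4 h, SO 4 h, SO 4 d and UVD 4 d. Each neighboring pair in this order overlapped or shared a value on the quantile normalized scale, so no neighbors differed beyond their spread there. On 3 other scales, and for each probe normalized on its own, UVD 4 h and SO 4 h did not overlap. These values are described with the probes, with the comparison at 4 h and with the values the authors deposited.

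The arrays of a group differed for miR-218a-5p by 0 in UVD 4 d, 0.24 in UVD 4 h, 0.17 in SO 4 d and 0.28 in SO 4 h on the log2 scale. The median difference over all tested miRNAs was 0.13 in UVD 4 d, 0.10 in UVD 4 h, 0.15 in SO 4 d and 0.09 in SO 4 h. The replicates of miR-218a-5p were therefore further apart than those of the median miRNA in 3 of the 4 groups.

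The array carried 2 probes for miR-218a-5p with 8 spots each. All 128 spots were well above background, with processed signals between 1989 and 4737. The spots of a probe on an array had a coefficient of variation between 3.63% and 9.23%. The second probe was brighter than the first by a factor of 1.24 to 1.33 over the 8 arrays, with a mean ratio of 1.30 ± 0.03 (SD, n = 8 arrays).

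**Figure D2:**
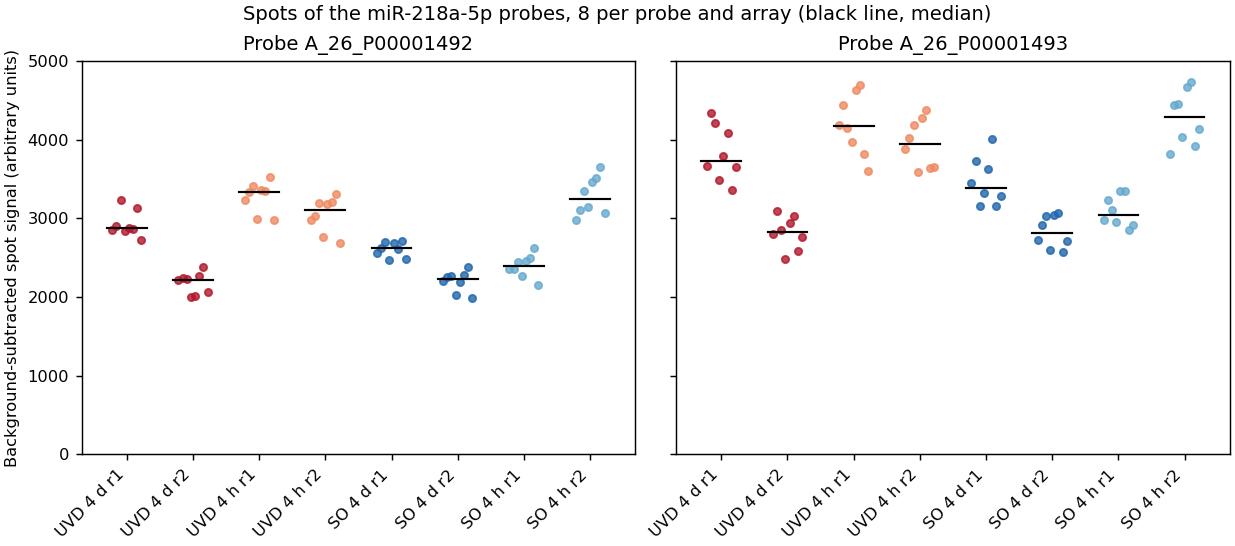
Processed signal of every miR-218a-5p spot, in arbitrary units, for its 2 probes on each of the 8 arrays. Each point is 1 spot and each black line the median of the 8 spots of a probe. All spots lie between 1989 and 4737.

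The first comparison asked whether miR-218a-5p changed between 4 h and 4 d after labyrinthectomy, the interval over which rats recover from the loss of vestibular input on one side. The study picked miR-218a-5p as a candidate from this comparison on these same arrays, so its difference here is a description and not independent evidence. The study went on to quantitative PCR in other rats, where it reported an increase in UVD relative to SO. It also infused an antagomir, an inhibiting oligomer, and these arrays hold neither experiment. On these arrays the level of miR-218a-5p was lower at 4 d, with a log2 fold change of -0.49 (SE 0.13, 95% interval -0.83 to -0.15), a factor of 0.711 (0.561 to 0.901). Its adjusted p by limma was 0.237, so it did not pass. Without normalization the log2 fold change was -0.31. limma called 0 of the 422 tested miRNAs in this comparison (0%), while 65 (15.4%) had an unadjusted p under 0.05. By p, 22 miRNAs ranked before miR-218a-5p. By size of the log2 fold change, 60 miRNAs ranked before it. The UVD 4 d and UVD 4 h arrays did not overlap, with the 4 d arrays lower, for 107 of the 422 miRNAs (25.4%), miR-218a-5p among them. With 2 arrays against 2, an exact permutation test of a single miRNA cannot go below p = 0.333 (two-sided).

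Each probe was also normalized and tested on its own. The first had 1239 and 1179.6 on the UVD 4 d arrays and 2018 and 1689 on the UVD 4 h arrays, a log2 fold change of -0.61 (limma, adjusted p = 0.214). The second had 1653 and 1689 on the UVD 4 d arrays and 2654 and 2197 on the UVD 4 h arrays, a log2 fold change of -0.53 (limma, adjusted p = 0.228). Both probes were lower at 4 d, and neither difference passed. On the SO arrays the first had 1419 and 1314 at 4 d and 1484 and 1601.1 at 4 h. The second had 1850 and 1601.1 at 4 d and 1891 and 2144 at 4 h. For each probe both UVD 4 h arrays were above both SO 4 h arrays, and both SO 4 d arrays below them. The share of all probes that did so was not counted. UVD over SO at 4 h, the log2 fold change was 0.26 for each (limma, adjusted p = 0.310 and 0.384). The probes read the same RNA on the same arrays, so they are not separate observations.

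The second comparison gives the change over the same time after the sham operation. The log2 fold change of miR-218a-5p between SO 4 d and SO 4 h was -0.20 (95% interval -0.54 to 0.14), a factor of 0.873, with an adjusted p of 0.457 by limma. It was -0.13 and -0.018 with the arrays scaled to their 75th percentile, taken over the miRNAs detected on all arrays or over every miRNA. The SO 4 d and SO 4 h arrays overlapped. limma called 7 of the 422 miRNAs here (1.66%), and miR-218a-5p was not among them. The time change after UVD minus the time change after SO was -0.30 on the log2 scale (SE 0.19, 95% interval -0.78 to 0.19). This difference had an adjusted p of 0.590 by limma, which called 1 of the 422 miRNAs (0.237%). The difference was -0.53 (adjusted p = 0.265) and -0.55 (adjusted p = 0.345) with these scalings, beside medians over all miRNAs of -0.11 and -0.13, and -0.10 (adjusted p = 0.835) without normalization, beside a median of 0.31. At the adjusted threshold these arrays did not show that the time change of miR-218a-5p differed between the operations.

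Labyrinthectomy was then compared with the sham operation at each time. At 4 h the log2 fold change of miR-218a-5p, UVD over SO, was 0.21 (95% interval -0.13 to 0.55), a factor of 1.16 (0.912 to 1.46), with an adjusted p of 0.474 by limma. The UVD 4 h arrays, at 4505 and 3820.1, overlapped the SO 4 h arrays, at 3257 and 3957. With scaling to the 75th percentile of the miRNAs detected on all arrays they did not overlap, with 4840.2 and 4164 on the UVD 4 h arrays and 3109 and 3674 on the SO 4 h arrays, and likewise with the percentile of every miRNA, with 4668 and 4090.4 on the UVD 4 h arrays and 2893 and 3602 on the SO 4 h arrays. The log2 fold changes were then 0.41 (limma, adjusted p = 0.180) and 0.44 (limma, adjusted p = 0.213), beside medians over all miRNAs of 0.12 and 0.15. On these scales 50.5% and 55.0% of the 422 miRNAs were likewise higher in UVD 4 h without overlap. On the quantile normalized scale limma called 2 of the 422 miRNAs in this comparison (0.474%). At 4 d the log2 fold change between the UVD and SO groups was -0.09 (95% interval -0.43 to 0.25), a factor of 0.941 (0.743 to 1.19), with an adjusted p of 0.911 by limma. Here limma called 0 of the 422 miRNAs (0%), while 16 (3.79%) had an unadjusted p under 0.05. Both UVD 4 d arrays and 1 SO 4 d array were tied at 2949. The direction at 4 d turned without normalization, to 0.07. The comparisons share arrays, since UVD 4 h entered both the first comparison and the one against SO at 4 h, and the other groups likewise entered more than 1.

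**Figure D3:**
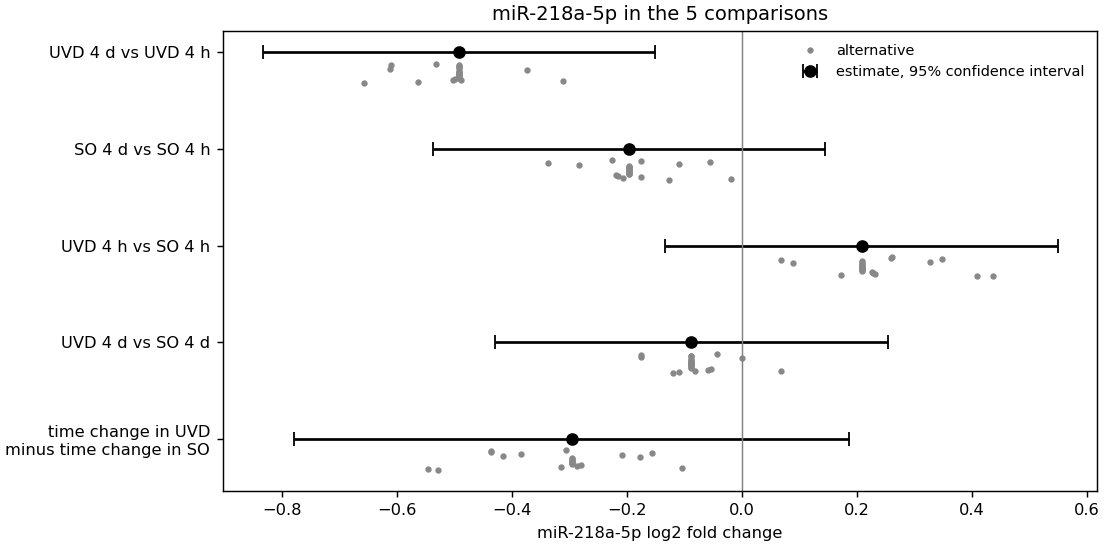
Log2 fold changes of miR-218a-5p in the 5 comparisons, with 95% intervals from limma (black) and the values under the alternative settings (grey). The interval of UVD 4 d against UVD 4 h, from -0.83 to -0.15, is the one that leaves out 0, and the others include it.

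The normalized values that the authors deposited for miR-218a-5p were 2782 and 2526 on the UVD 4 d arrays, 4049 and 3463 on the UVD 4 h arrays, 2995 and 2526 on the SO 4 d arrays, and 3068 and 3339 on the SO 4 h arrays. In this table too, both UVD 4 h arrays were above both UVD 4 d arrays, as for 28.4% of the 422 miRNAs, and 1 UVD 4 d and 1 SO 4 d array shared a value. Both UVD 4 h arrays were above both SO 4 h arrays, as for 23.9% of the miRNAs, and both SO 4 d arrays were below both SO 4 h arrays, as for 25.8%. Both of these pairs of groups overlapped in the total gene signals quantile normalized here.

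The 3p arms are the passenger strands of the miR-218 hairpins, which are usually degraded once the 5p arm is loaded. miR-218a-1-3p was detected on 0 of 8 arrays. Its 128 spots had processed signals between -6.59 and 8.02, and 0 were well above background. miR-218a-2-3p was detected on 1 of 8 arrays, replicate 1 of UVD 4 h, with a total gene signal of 1.86 and an error of 0.55. That array's lowest detected signal was 1.76, and miR-218a-2-3p ranked 427th of its 429 detected miRNAs. Of its 128 spots, 0 were well above background. No fold change is given for either 3p arm, since neither had a level in both groups of any comparison.

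On the array where it was detected, the signal of miR-218a-2-3p was that of 1 of its 4 probes. That probe had 0.820 and 0.419 on the UVD 4 d arrays, 1.86 and 1.81 on the UVD 4 h arrays, 1.16 and 0.483 on the SO 4 d arrays, and 1.13 and 1.48 on the SO 4 h arrays. The UVD 4 h arrays were the highest, and the errors were 0.55 to 0.84 per array, so the signal lay near the limit of detection.

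miR-218b, from the strand opposite Mir218-1, was detected on 0 of 8 arrays. Its 128 spots lay between -8.29 and 5.48, and 0 were well above background. Signal of the antisense strand was thus not detectable on these arrays, which does not show that it is absent. In the values that the authors deposited, the members other than miR-218a-5p lay between 36.7 and 39.9, within the range of 35.6 to 51.1 of miRNAs that were not detected.

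**Figure D4:**
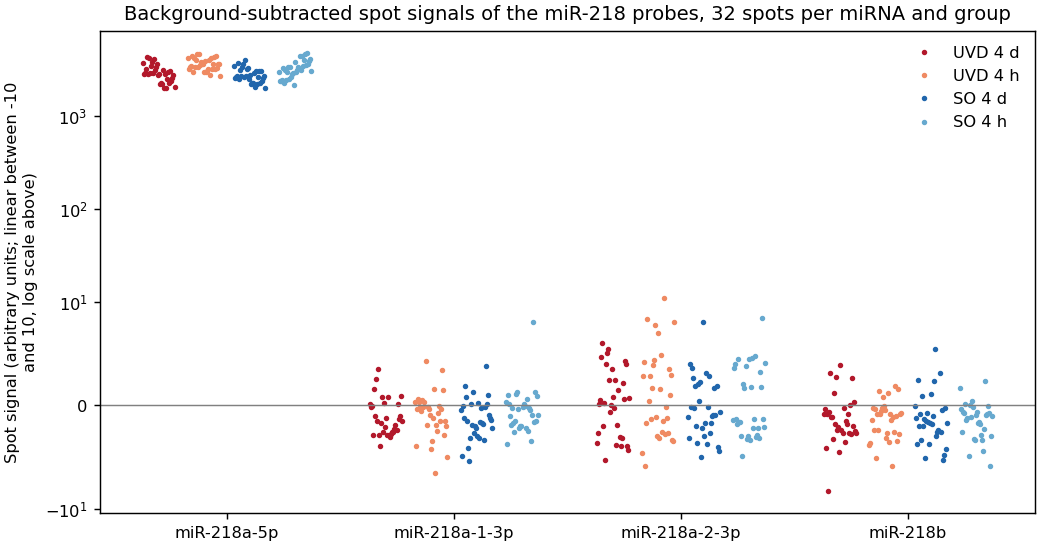
Background-subtracted signal of every spot of the 4 members, in arbitrary units, by group (32 spots per miRNA and group), on an axis that is linear up to 10 on both sides of 0 and logarithmic above. Spots of miR-218a-5p lie between 1989 and 4737, and those of the other 3 members lie around 0, between -8.29 and 11.2.

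The miRNAs whose pattern over the 8 arrays was most like that of miR-218a-5p were sought among the other 376 miRNAs detected on all arrays, by Pearson correlation of the normalized log2 values. They were miR-770-3p with r = 0.89, miR-103-3p with r = 0.89, miR-496-3p with r = 0.86, miR-211-3p with r = 0.78 and miR-138-5p with r = 0.77, beside a median of 0.06 over all 376. These correlations describe 8 arrays that fall into 4 groups on 1 slide, and the points share the normalization. miR-770 and miR-496 are encoded in the imprinted Dlk1-Dio3 region, miR-103 is broadly expressed, and miR-138 is abundant in neurons.

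miR-770-3p had a normalized intensity of 79.5 and 82.7 on the UVD 4 d arrays, 98.4 and 95.7 on the UVD 4 h arrays, 87.4 and 88.4 on the SO 4 d arrays, and 90.4 and 95.7 on the SO 4 h arrays. Like miR-218a-5p it was on average highest in UVD 4 h and lowest in UVD 4 d. The 5 miRNAs were picked for likeness over these same arrays, so a shared order follows from the choice. miR-103-3p had 6228 and 6360.4 on the UVD 4 d arrays, 6745 and 6578 on the UVD 4 h arrays, 6360.4 and 6360.4 on the SO 4 d arrays, and 6578 and 6745 on the SO 4 h arrays. Its order of arrays was similar over a much smaller range. Between UVD 4 d and UVD 4 h the log2 fold change was -0.26 for miR-770-3p, -0.08 for miR-103-3p, -0.14 for miR-496-3p, -0.28 for miR-211-3p and -0.21 for miR-138-5p, and limma called 0 of them. For the last 4 of these the sign turned without normalization. The change of miR-218a-5p, at -0.49, was larger in size than each.

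**Figure D5:**
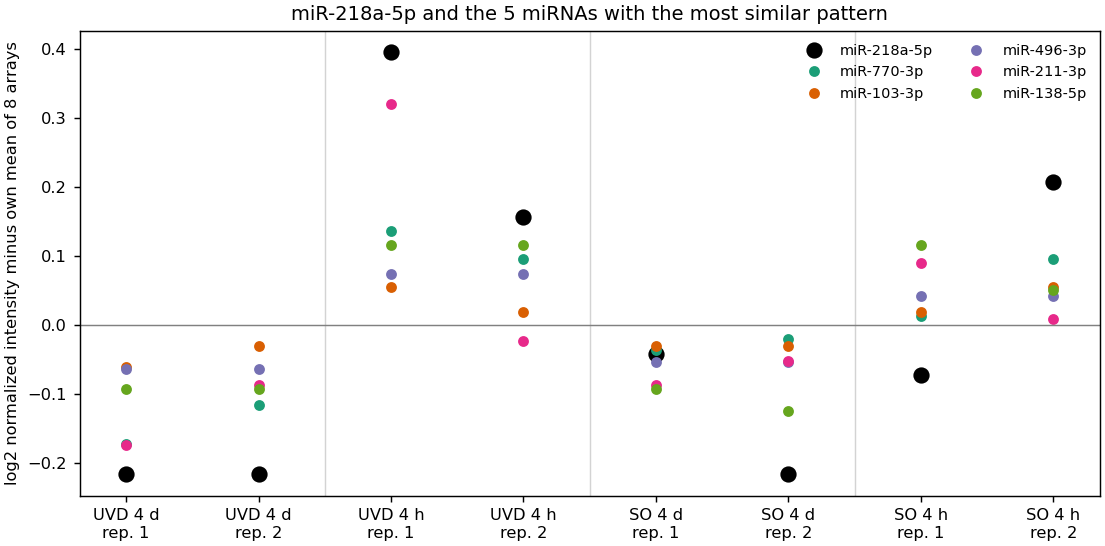
Normalized log2 intensity, relative to each miRNA's mean over the 8 arrays, of miR-218a-5p and the 5 miRNAs with the highest correlation with it. After normalization all 6 lie higher on the UVD 4 h arrays than on the UVD 4 d arrays, with the widest range for miR-218a-5p. The shared direction follows from the selection by likeness over these arrays. Of all 422 tested miRNAs, 25.4% were likewise lower in UVD 4 d without overlap. Without normalization the sign of the mean difference turned for 4 of the 6.

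Neuron-enriched miRNAs were detected in all samples, 16 of 16 on all 8 arrays. Their summed normalized intensity was 86902 to 91340.3 on the UVD 4 d arrays, 84858 to 87683 on the UVD 4 h arrays, 84213 to 87261 on the SO 4 d arrays and 86038 to 93007 on the SO 4 h arrays, and the ranges of UVD 4 d and UVD 4 h overlapped. Between UVD 4 d and UVD 4 h, 4 of the 16 had a positive and 11 a negative log2 fold change with 1 at 0, and limma called 0. Their median was -0.07, beside -0.01 over all 422. miR-124-3p, the most abundant neuronal miRNA, averaged 27580.1 ± 2084 in UVD 4 d and 22762 ± 1149 in UVD 4 h, a log2 fold change of 0.28 (limma, adjusted p = 0.319). miR-128-3p, which limits neuronal excitability, had 0.19, and miR-9a-3p and miR-9a-5p, which act in neural progenitors and neurons, had -0.04 and 0.00 on the log2 scale. The sign for miR-9a-3p turned with the scaling.

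Between SO 4 d and SO 4 h, 4 of the 16 had a positive and 12 a negative log2 fold change, with a median of -0.14 beside 0.00 over all 422. limma called 2 of these 16, both lower at 4 d, beside 7 of all 422 miRNAs (1.66%). miR-137-3p, a regulator of neuronal differentiation, averaged 569 ± 63.2 in SO 4 d and 1038 ± 10.9 in SO 4 h, a log2 fold change of -0.87 (adjusted p = 0.0383). miR-7a-5p, which is enriched in neuroendocrine cells, averaged 385 ± 94.7 in SO 4 d and 868 ± 0 in SO 4 h, a log2 fold change of -1.19 (limma, adjusted p = 0.0437). Here too the SD of 0 is that of a tied rank, and it enters the estimate of the spread. Between UVD and SO, limma called 0 of the 16 at 4 h, with a median of -0.07, and 0 at 4 d, with a median of -0.02. At 4 h, 4 of the 16 were higher and 11 lower in UVD, with 1 equal. miR-137-3p averaged 609 in UVD 4 h and 504 in UVD 4 d, and miR-7a-5p averaged 433 and 402. For both, SO 4 h was the highest group, and UVD 4 h lay below it without passing (limma, adjusted p = 0.0686 and 0.0866). Their fall after SO and their difference from UVD at 4 h thus share the SO 4 h arrays.

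miRNAs of the Hox clusters mark the hindbrain and spinal cord and served as a check of position. miR-10a-5p and miR-10b-5p were detected on all 8 arrays, and miR-196a-5p, miR-196b-5p, miR-196c-5p and miR-615, from more posterior Hox genes, on 0 arrays. The summed intensity of the list was 268 to 282 on the UVD 4 d arrays, 338 to 339 on the UVD 4 h arrays, 262 to 363 on the SO 4 d arrays and 713 to 752 on the SO 4 h arrays. The SO 4 h arrays stood above all others. In SO 4 d relative to SO 4 h, miR-10a-5p fell by 1.31 (limma, adjusted p = 0.0386) and miR-10b-5p fell by 1.17 (limma, adjusted p = 0.0437) on the log2 scale. They were the 2 members of this list that were tested, and limma called 7 of all 422 miRNAs (1.66%). miR-218a-5p had -0.20 in the same comparison. The SO calls of miR-137-3p, miR-7a-5p, miR-10a-5p, miR-10b-5p and miR-34c-5p each passed in 5 to 7 of 21 alternatives and were lost without any 1 of the 4 UVD arrays, which share the estimate of the spread (limma, adjusted p between 0.0823 and 0.136). Motor neurons themselves have no other marker among these miRNAs, so the cells that gave the miR-218a-5p signal were not identified.

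Markers of other cell types also differed between UVD 4 d and UVD 4 h in direction, although none passed the test. Of the choroid plexus and ciliated cell list, 6 of 7 members were detected on all arrays, and 7 of 7 had a positive log2 fold change between UVD 4 d and UVD 4 h, with a median of 0.57 and 0 calls by limma. The seventh, miR-449a-5p, was detected on 7 arrays and lay at the floor of 1 on 1 UVD 4 h array, so its value there is only a bound. The list holds miR-211-5p, with a mean intensity of 19.0 and a log2 fold change of 0.61. The other arm, miR-211-3p, is outside the list and went the other way, with a mean of 47.9 and -0.28. Over the same time after SO, 5 of 7 of the list were positive, with a median of 0.20. The members did not move alike. miR-204-5p and miR-1298 had log2 fold changes of 0.57 and 2.17 after UVD, and 0.09 and -0.77 after SO. miR-1298 averaged 86.8 ± 53.5 in UVD 4 d. By contrast, miR-34b-5p, miR-34c-5p and miR-34c-3p had 0.13, 0.17 and 0.11 after UVD, and 0.57, 0.64 and 0.53 after SO. For the difference between the time changes limma called 0 of the list. The summed intensity of this whole list was 7390 to 9173 on the UVD 4 d arrays and 5922 to 6056 on the UVD 4 h arrays. It was 6119 to 6437 on the SO 4 d arrays and 5204 to 5391 on the SO 4 h arrays. In SO, limma called 1 of the list's 7 members, beside 7 of all 422 miRNAs (1.66%). This was miR-34c-5p of ciliated cells, higher at 4 d with a log2 fold change of 0.64 (limma, adjusted p = 0.0386). In the microglia and leukocyte list, 6 of 7 had a positive log2 fold change after UVD, with a median of 0.30. Over the same time after SO, 5 of 7 were positive, with a median of 0.33. The sums were 4410.04 to 4717 on the UVD 4 d arrays and 4017 to 4053 on the UVD 4 h arrays. In the erythroid list the log2 fold change after UVD was positive for 3 of 3, with a median of 0.32. After SO it was likewise positive for 3 of 3, with a median of 0.25. The sums were 869 to 1277 in UVD 4 d and 739 to 939 in UVD 4 h.

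In the oligodendrocyte list, 4 of 5 members were tested and 4 of 4 had a negative log2 fold change after UVD, with a median of -0.09. After SO, 3 of 4 were positive, with a median of 0.08. The sums were 45375 to 53705 on the UVD 4 d arrays and 53698 to 54388 on the UVD 4 h arrays. In the muscle list 1 of 4 was positive after UVD, with a median of -0.08, and 4 of 4 after SO, with a median of 0.63. The sums were 1771 to 2356 in UVD 4 d and 2127 to 2145 in UVD 4 h. limma called 0 members of these lists after UVD. The part of these lists in the difference of miR-218a-5p between UVD 4 d and UVD 4 h was not tested.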

How the data were processed

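The authors deposited 1 scanner text file per array, read with Agilent Feature Extraction 10.7.3.1, which holds background-subtracted spot intensity, a total gene signal per miRNA and detection flags, and 1 table of their own quantile normalized intensity on a linear scale. Control spots were left out. The 8 arrays' total gene signals were quantile normalized, values under 1 were set to 1, and log2 was taken. Tested were the 422 miRNAs that some group had on both of its arrays, fitted with limma 3.58.1 in R 4.3.3 (lmFit on the 4 group means, eBayes), with Benjamini-Hochberg adjustment at 0.05 over all of them. Having 2 arrays per group limits the precision. p-values measure the spread between pools of different animals. The members and the marker lists were chosen with earlier results of these data known. Named were the members, the 5 miRNAs most like miR-218a-5p, the Hox list, the called members of the other lists and the brightest of the neuron-enriched list. Besides, miR-449a-5p was named for its value at the floor and miR-211-5p for its other arm. The rest of the choroid plexus and ciliated cell list was named because its members moved differently. Sequences are from RefSeq (GRCr8). The model was tested on simulated data. Alternatives were other scalings, signals, filters, floors and variance models, a replicate block, and each array left out in turn. Background correction with normexp used the median spot signal, in place of the mean spot signal, which was not used here.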

Additional observations from a re-analysis of the deposited data

Results flagged for a closer look

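miR-218a-2-3p, which took no part in the tests, was detected on replicate 1 of UVD 4 h, with a total gene signal of 1.86, and on none of the other 3 UVD arrays or the 4 SO arrays. This was singled out as a signal outside the main measurement that was called on no sham array. Its error was 29.6% of the signal, and the probe behind it read 1.81 on the other UVD 4 h array and 0.483 to 1.48 on the SO arrays, with errors of 0.55 to 0.84, so the call does not separate the UVD arrays from the SO arrays.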

How the results depend on the processing

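miR-218a-5p passed the threshold in 0 of 23 alternatives for each comparison of 2 groups and in 0 of 21 for the difference between the time changes. Its adjusted p lay between 0.0972 and 0.427 for UVD 4 d against UVD 4 h, 0.241 and 0.958 for SO 4 d against SO 4 h, 0.180 and 0.919 for UVD 4 h against SO 4 h, 0.744 and 1 for UVD 4 d against SO 4 d, and 0.265 and 1 for the difference between the time changes. Its log2 fold change was negative in all 23 alternatives for UVD 4 d against UVD 4 h (-0.66 to -0.31). Its direction turned in 1 alternative, UVD 4 d against SO 4 d without normalization, at 0.069, and it was 0 without replicate 1 of SO 4 d. The cause was not tested. Without normalization the median of all miRNAs was 0.16 in that comparison and 0.26 for UVD 4 d against UVD 4 h, and with all miRNAs used for the 75th percentile it was 0.20 for SO 4 d against SO 4 h. Leaving out 1 array at a time gave log2 fold changes of -0.61 to -0.37 for UVD 4 d against UVD 4 h, -0.34 to -0.06 for SO 4 d against SO 4 h, 0.07 to 0.35 for UVD 4 h against SO 4 h, -0.17 to 0 for UVD 4 d against SO 4 d, and -0.44 to -0.16 for the difference between the time changes.

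Counts of called miRNAs, at an adjusted p under 0.05, moved with the processing. The counts by the methods' t-test use this threshold too. The study itself selected candidates by a looser, unadjusted p together with a limit on the fold change. By this t-test miR-218a-5p had an unadjusted p of 0.0537 (adjusted p = 0.410) for UVD 4 d against UVD 4 h. For UVD 4 d against UVD 4 h and for UVD 4 d against SO 4 d, with 0 calls each, there was 1 call with either scaling to the 75th percentile, without normalization and with a floor of 0.1, and there were 2 without a filter on detection. For SO 4 d against SO 4 h, with 7 calls, there was 1 with either scaling and without normalization, and there were 13 from the mean processed spot signal, 15 after normexp, 19 from the authors' normalized values, 3 with the floor of 0.1, 2 without the filter, 2 with only the groups compared, 2 with the replicate block and 0 by the methods' t-test. For UVD 4 h against SO 4 h, with 2 calls, there was 1 with either scaling and without normalization, and there were 5 from the mean processed spot signal, 5 after normexp, 6 with a trend and robust eBayes, 9 with only the groups compared and 0 by the methods' t-test. For the difference between the time changes, with 1 call, there were 2 with either scaling and without normalization, 3 with the floor of 0.1 and 3 without the filter, and 0 from the mean processed spot signal, after normexp, from the authors' values and with a trend and robust eBayes. Leaving out 1 array at a time gave 0 to 11, 1 to 12, 1 to 10, 0 to 2 and 0 to 7 calls, in order for UVD 4 d against UVD 4 h, SO 4 d against SO 4 h, UVD 4 h against SO 4 h, UVD 4 d against SO 4 d, and then the difference of the time changes. The 11 and 10 calls were without replicate 1 of UVD 4 h, the 12 calls without replicate 1 of SO 4 d, and the single calls for SO 4 d against SO 4 h without either UVD 4 d array. Among the other named miRNAs, the log2 fold change between UVD 4 d and UVD 4 h turned without normalization for miR-103-3p (0.23), miR-138-5p (0.018), miR-211-3p (0.029) and miR-496-3p (0.15), and for miR-9a-3p with both scalings (0.014 and 0.11), without normalization (0.36), after normexp (0.027) and in the authors' values (0.12). miR-496-3p passed in that comparison without the filter (limma, adjusted p = 5.62e-09). Its arrays were tied within each of the 4 groups after normalization, so its spread was 0. This p thus rests on tied ranks and is not read as a difference.

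The replicate numbers did not pair the arrays, since deviations of same-numbered arrays correlated between -0.25 and 0.19 over the 6 pairs of groups. With the replicate number as a block, miR-218a-5p had -0.49 and an adjusted p of 0.341 by limma for UVD 4 d against UVD 4 h. The block changed no call of miR-218a-5p in any comparison. Groups of 2 arrays on 1 slide limit all comparisons.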
